A study of Mus musculus with 9 samples.

Results

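The genes described here are 46 transcripts of the cell division cycle, 16 that act in or just before S phase, when DNA is copied, and 30 that act in mitosis, when the chromosomes are separated. They were listed by name and matched by symbol to the Ensembl identifiers of a gene table with 56748 entries. All 46 were found, and all 46 were among the 14431 genes that reached at least 1 FPKM in at least 3 of the 9 libraries and were tested. FPKM is the number of fragments scaled to exon length, so that genes of different length can be compared, and to a library size. That size was not the plain read total. It was 15344525 for CTX_HCQ 3, where 13900762 reads could be recovered, and 16820966 for CTX 1, where 17292647 could. FPKM summed over all genes still ran from 246449 in CTX_HCQ 3 to 378232 in CTX 3. A factor taken as the median ratio over genes was the same in all 9 libraries, so the deposited values already shared a common median ratio. The libraries hold polyadenylated RNA of granulosa cells, which line and nourish the oocyte in the ovarian follicle, taken from wild type female C57BL/6 mice. There were 3 libraries in each of 3 groups. Control mice received neither drug, and are called vehicle mice in the design text and untreated in the labels. CTX mice were injected with cyclophosphamide, an alkylating drug that crosslinks DNA, at 120 mg per kg as a model of premature ovarian failure. CTX_HCQ mice received that injection and oral hydroxychloroquine at a daily 40 mg per kg that began 7 days ahead of it and ended 4 weeks later. The ages of the mice, and when after treatment the granulosa cells were taken, are not given in the sources used here. Nor is it given whether a library was made from 1 mouse or a pool, so the p-values measure only the spread between libraries.

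A cell commits to division in G1, when D-type and E-type cyclins with their kinases release E2F factors from the retinoblastoma family of pocket proteins. E2F then turns on genes that license replication origins, build the replication fork and make deoxynucleotides, and a later wave of transcription, driven through the DREAM and MuvB complexes with B-MYB and FOXM1, supplies cyclin B, the spindle motors and the checkpoint. Granulosa cells of growing follicles are among the most actively dividing cells of the adult ovary, and they leave the cycle when they luteinise.

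Many promoters of both gene sets, though not all, carry short elements known from cell cycle genes. The sequences below are those of members with high or named values. Windows from 250 bases before to 50 bases after the annotated start were taken from RefSeq on GRCm38.p6, an earlier build than that of the expression table, and were present for 39 of the 46 members. TTTGAA, the core of the cell cycle homology region, was found on either strand in 74.1% of 27 mitosis windows and 7.14% of 14 S phase windows, against 17.9% of the 32851 windows of all genes. TTTNNCGC, an E2F-type site, was found on either strand in 50% of the S phase windows and 3.70% of the mitosis windows, against 5.17% of all. GCGGGAA, a second E2F-type form, was found on either strand in 42.9%, 0% and 4.60% in the same order. CCAAT, the box bound by NF-Y, was found on either strand in 64.3% of the S phase windows, 77.8% of the mitosis windows and 37.4% of all. A match is a run of letters and not a shown binding site. Each sequence below is the 150 bases before the annotated start, read 5′ to 3′ on the strand of the gene, with matches to the CCAAT box, the homology region core and the first E2F-type form in capitals, on either strand. The first 2 are mitosis genes that hold a CCAAT box and the homology region core together, and the next 2 are replicative helicase genes with E2F-type sites.
Cdc20 (chr4:118437344-118437493, minus strand): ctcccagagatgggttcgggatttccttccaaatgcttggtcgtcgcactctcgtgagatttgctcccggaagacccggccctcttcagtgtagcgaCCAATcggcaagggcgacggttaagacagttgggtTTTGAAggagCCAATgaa
Ube2c (chr2:164769779-164769928, plus strand): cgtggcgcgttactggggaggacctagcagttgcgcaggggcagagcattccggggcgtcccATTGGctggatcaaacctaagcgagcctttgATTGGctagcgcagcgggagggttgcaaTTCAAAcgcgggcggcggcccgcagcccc
Mcm6 (chr1:128359706-128359855, minus strand): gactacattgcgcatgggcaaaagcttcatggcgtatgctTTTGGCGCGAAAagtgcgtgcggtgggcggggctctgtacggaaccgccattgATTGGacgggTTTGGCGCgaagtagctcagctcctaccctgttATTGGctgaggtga
Mcm5 (chr8:75109359-75109508, plus strand): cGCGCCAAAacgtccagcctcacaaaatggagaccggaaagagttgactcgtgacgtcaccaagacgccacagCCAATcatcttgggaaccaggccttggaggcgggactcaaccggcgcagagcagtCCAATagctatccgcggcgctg
The following 4 belong to members described in detail below, of which Ccnb1 and Pcna held CCAAT and Nusap1 and Tyms held none of these 3 elements in the 150 bases shown.
Ccnb1 (chr13:100786487-100786636, minus strand): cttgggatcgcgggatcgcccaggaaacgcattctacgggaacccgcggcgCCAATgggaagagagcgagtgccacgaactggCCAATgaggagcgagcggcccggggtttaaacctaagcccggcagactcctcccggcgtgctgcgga
Pcna (chr2:132253181-132253330, minus strand): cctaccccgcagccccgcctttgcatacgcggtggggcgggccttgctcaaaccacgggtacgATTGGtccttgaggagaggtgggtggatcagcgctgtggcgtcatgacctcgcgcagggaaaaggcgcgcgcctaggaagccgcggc
Nusap1 (chr2:119618148-119618297, plus strand): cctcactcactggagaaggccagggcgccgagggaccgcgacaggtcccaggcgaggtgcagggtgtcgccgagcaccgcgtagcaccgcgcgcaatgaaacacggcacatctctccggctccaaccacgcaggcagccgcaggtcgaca
Tyms (chr5:30073626-30073775, minus strand): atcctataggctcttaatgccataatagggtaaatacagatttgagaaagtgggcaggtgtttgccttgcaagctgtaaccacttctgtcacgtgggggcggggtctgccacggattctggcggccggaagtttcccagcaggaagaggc

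Between 13900762 reads (CTX_HCQ 3) and 17754551 reads (Control 2) could be recovered per library from the FPKM, and between 99 reads (Ccne1) and 4694 reads (Mki67) lay behind each value of a member. All 14 granulosa markers were tested, and their summed FPKM ran from 4745 to 7726. Most of that sum was Inha, at 2865 to 4951 FPKM, while Inhba, the most variable of the 14, ran from 41.6 to 440 FPKM. The 8 luteal markers, all tested, summed to between 2508 and 7917 FPKM. Among other cell types, summed FPKM ran from 293 to 3310 for erythroid markers, highest in Control 3, and from 41.6 to 181 for smooth muscle. It ran from 20.1 to 67.6 for endothelial and from 95.5 to 216 for stroma markers. The 10 oocyte markers, of which 9 were tested, summed to between 190.0 and 295 FPKM in Control, 196 and 275 in CTX and 174 and 276 in CTX_HCQ, and the groups overlapped. The 7 oviduct and ciliated markers, of which 6 were tested, summed to between 4.77 and 78.02 FPKM in Control, 70.9 and 382 in CTX and 9.49 and 18.3 in CTX_HCQ, with the highest sum in CTX 3 and every CTX library above every CTX_HCQ library. In CTX_HCQ 3 the shorter genes were low and the longer ones high: the median deviation from the 9-library mean on the log2 scale was -0.24 for the shorter 7217 tested genes and 0.10 for the longer 7214. The opposite held in CTX 3 (0.12 for the shorter and -0.13 for the longer genes), CTX_HCQ 2 (0.14 and -0.083) and CTX 1 (0.10 and -0.068). For the 23 shorter members the median deviation was -0.18 in CTX_HCQ 3, and for the 23 longer members -0.052. In CTX 3 these were 0.0031 and 0.067. The part of other cells or of gene length in any difference was not tested. In bulk RNA, fewer cells of a type and less RNA per cell cannot be told apart.

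None of the 46 cell cycle genes passed the test in any comparison. Differences are given as log2(FPKM + 1) of the first group minus the second, with the standard error. For CTX against Control, limma called 0 of the 14431 tested genes at an adjusted p under 0.05 (0%), and for CTX_HCQ against CTX and CTX_HCQ against Control it also called 0 (0% each). At an unadjusted p under 0.05 there were 1126, 785 and 312 genes, which is 7.80%, 5.44% and 2.16% of those tested, and limma voom on the recovered reads gave 1131, 745 and 309, with 0 called. The smallest adjusted p of any of the 46 members was 0.652, 0.906 and 1 in these 3 comparisons. The 95% interval of the difference lay within 1 unit of log2(FPKM + 1) either way for 41 of 46 members in CTX against Control, for 43 in CTX_HCQ against CTX and for 42 in CTX_HCQ against Control. Members whose interval reached past 1 unit in at least 1 comparison were Mki67, Kif20a, Prc1, Rrm2, Gmnn, Ndc80, Cenpe and Cenpf. A unit is a doubling of FPKM + 1, which for genes of a few FPKM is more than a doubling of FPKM. Single libraries weighed on nearly every difference. With each of the 9 libraries left out in turn, the difference moved by over 1.5 times or turned its sign for 43, 44 and 43 of the 46 members in the 3 comparisons, and turned its sign for 13, 26 and 19. No such count over all tested genes stands beside these, so they do not set the members apart from other genes. The comparisons share libraries, so their values are set side by side and are not independent of each other.

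**Figure D1:**
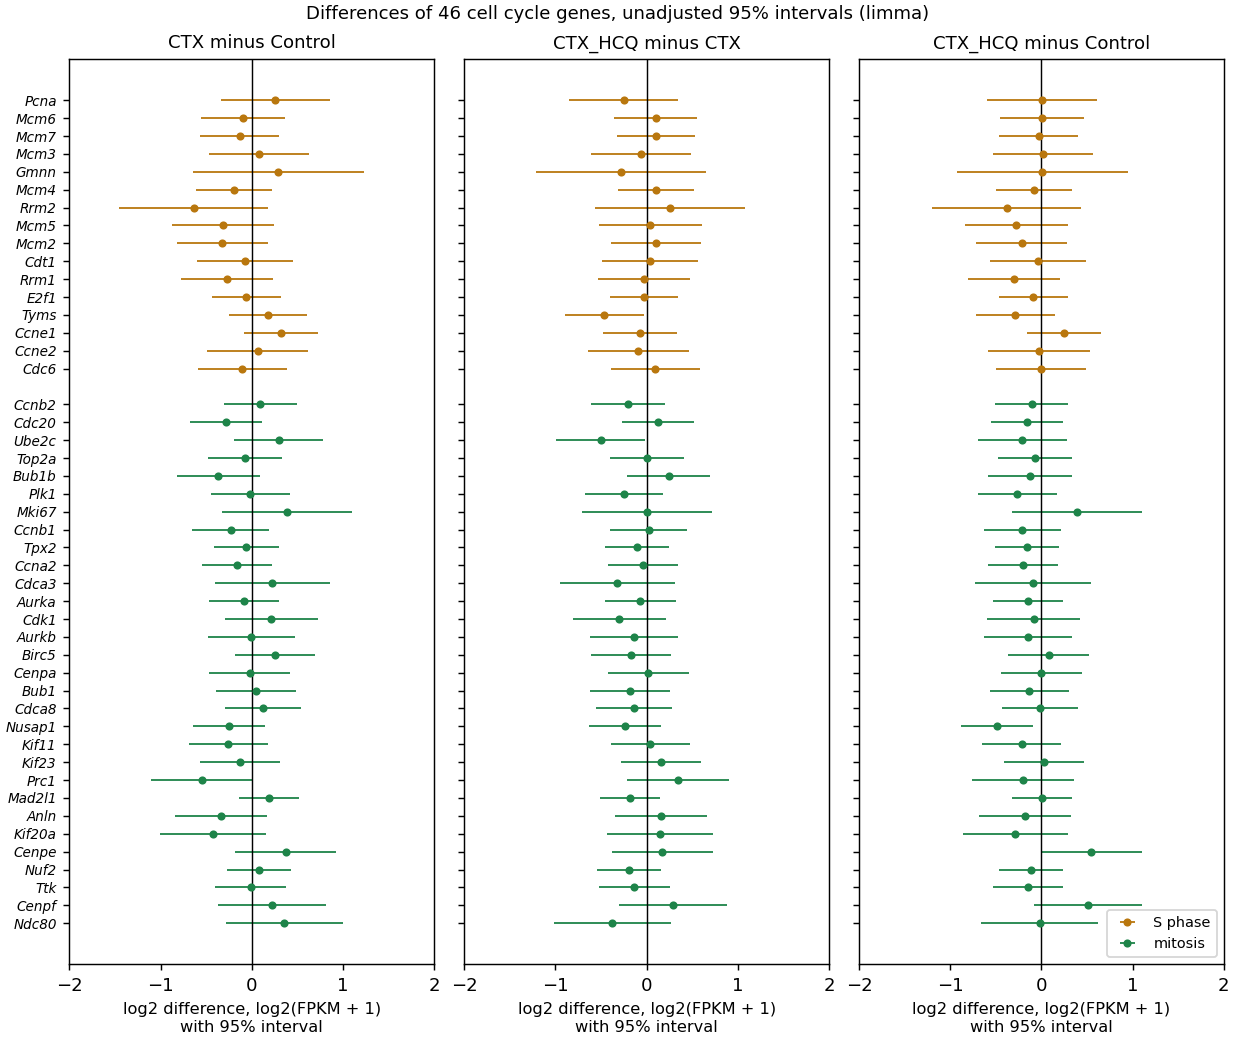
Difference of each of the 46 genes in the 3 comparisons, on the log2(FPKM + 1) scale, with the unadjusted 95% interval from limma; S phase genes are at the top and mitosis genes below, each sorted by mean FPKM. Most points lie close to 0, and the interval excludes 0 for Tyms and Ube2c in CTX_HCQ minus CTX and for Nusap1 in CTX_HCQ minus Control.

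Among the 16 S phase genes, 6 were higher and 10 lower in CTX than in Control by their fitted difference, with a median of -0.085, beside a median of -0.0045 and 50.5% lower over all tested genes. None had an unadjusted p under 0.05 (0 of 16, beside 7.80% of all tested genes, 3.60% higher and 4.20% lower). None had groups that did not overlap, while 19.7% of all tested genes had such groups, 8.72% with CTX higher and 11.0% with CTX lower. Between CTX_HCQ and CTX, 8 were higher and 8 lower, with a median of 0.0063 beside 0.013 over all tested genes. Only Tyms was lower at an unadjusted p under 0.05, beside 3.60% lower and 1.84% higher of all tested genes. It was also the 1 of 16 without overlap, where 8.02% of all tested genes did not overlap, 4.57% lower and 3.45% higher. In CTX_HCQ against Control, 5 were higher and 11 lower, with a median of -0.031 beside -0.011. None was under an unadjusted p of 0.05 (0 of 16, beside 1.09% higher and 1.07% lower), and 0 of 16 were without overlap, beside 6.31% of all tested genes, 3.25% higher and 3.06% lower.

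Origin licensing is carried out by CDC6 and CDT1, which load the MCM2 to MCM7 helicase, and geminin (Gmnn) blocks CDT1 once S phase has begun. Cdc6 was among the scarcest members, at 1.66, 3.65 and 3.14 FPKM in Control, 2.21, 2.86 and 2.34 in CTX and 2.84, 2.84 and 2.43 in CTX_HCQ. Its lowest and highest library were both Control libraries. Cdt1, its partner, lay between 6.34 FPKM in CTX 1 and 11.3 FPKM in Control 2. Gmnn was present at 10.5, 16 and 15.8 FPKM in Control, 17.2, 12.3 and 23.7 in CTX and 15, 26.7 and 6.58 in CTX_HCQ. The lowest and the highest of these 9 values, 6.58 and 26.7 FPKM, both belonged to CTX_HCQ, and Gmnn has the shortest exon length of the 46, 1465 bases. The difference of Gmnn was 0.29 ± 0.42 in CTX against Control (adjusted p = 0.827) and -0.28 ± 0.42 in CTX_HCQ against CTX (adjusted p = 0.931), and without CTX 3 and CTX_HCQ 3 these were 0.069 and 0.43, so the sign of the second turned.

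The helicase subunits overlapped between all groups. Mcm2 was found at 9.1, 15.2 and 13.6 FPKM in Control, 7.93, 11 and 10.4 in CTX and 12.5, 10.4 and 8.98 in CTX_HCQ. Mcm5 was found at 12, 20.5 and 16 FPKM in Control, 11.2, 17.3 and 9.97 in CTX and 15.6, 11.6 and 11.9 in CTX_HCQ. For both, Control 2 was the highest library and each group overlapped the other groups. The difference of Mcm2 was -0.32 ± 0.22 in CTX against Control (adjusted p = 0.679), and that of Mcm5 was -0.32 ± 0.25 (adjusted p = 0.703). With 1 library left out, Mcm2 ran from -0.52 (without Control 1) to -0.18 (without Control 2) and Mcm5 from -0.54 (without CTX 2) to -0.14 (without Control 2). The remaining subunits had smaller differences in that comparison, 0.081 for Mcm3, -0.19 for Mcm4, -0.095 for Mcm6 and -0.13 for Mcm7. Mean FPKM per group in Control, CTX and CTX_HCQ was 23.1 ± 3.67, 21.5 ± 1.85 and 23.4 ± 5.09 for Mcm6 (SD, n = 3), the most abundant of the 6. Mcm3, Mcm6 and Mcm7 were lowest in CTX_HCQ 3, at 14.7, 18.1 and 17.8 FPKM.

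Pcna encodes the sliding clamp that holds the polymerases on DNA, and it was the most abundant S phase member by mean FPKM. Its values were 23.7, 28.1 and 31.9 FPKM in Control, 36, 31.2 and 32.9 in CTX and 29.5, 40.3 and 18.1 in CTX_HCQ. The CTX libraries were close together, and the 2 extremes, 18.1 and 40.3 FPKM, were both CTX_HCQ libraries. The difference in CTX_HCQ against CTX was -0.25 ± 0.27 (adjusted p = 0.909), and it was 0.048 without CTX_HCQ 3. Against Control it was 0.26 ± 0.27 for CTX (adjusted p = 0.760) and 0.0066 ± 0.27 for CTX_HCQ (adjusted p = 1). Pseudogenes named after Pcna exist in the annotation, so reads may have been shared with them.

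Deoxynucleotides are supplied by ribonucleotide reductase, with a constant subunit (Rrm1) and a cell cycle subunit (Rrm2), and by thymidylate synthase (Tyms). Rrm2 (ENSMUSG00000020649) varied most among the S phase genes, with a coefficient of variation of 41.9%, at 9.57, 24.5 and 23.4 FPKM in Control, 11.4, 14.3 and 8.24 in CTX and 20, 11.4 and 10.5 in CTX_HCQ. It was at or above 20 FPKM in Control 2, Control 3 and CTX_HCQ 1, and between 8.24 and 14.3 FPKM in the other 6 libraries. The difference was -0.64 ± 0.37 in CTX against Control (unadjusted p = 0.115, adjusted p = 0.653), with a 95% interval of -1.45 to 0.18. With 1 library left out it ran from -1.05 (without Control 1) to -0.41 (without Control 2). Between CTX_HCQ and CTX it was 0.26 ± 0.37 (adjusted p = 0.929), and its sign turned, to -0.017, without CTX_HCQ 1. Rrm1 lay between 6.02 FPKM in CTX_HCQ 3 and 12.3 FPKM in Control 2, with a difference of -0.28 ± 0.23 in CTX against Control (adjusted p = 0.709).

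Tyms (ENSMUSG00000025747) had the smallest p of the S phase genes in both comparisons that involve hydroxychloroquine. It was measured at 3.41, 4.59 and 4.09 FPKM in Control, 3.9, 4.45 and 5.81 in CTX and 3.58, 3.45 and 2.41 in CTX_HCQ. All CTX_HCQ values lay below all CTX values, by 0.320 FPKM at the nearest, and they overlapped Control. The difference was -0.46 ± 0.19 in CTX_HCQ against CTX (unadjusted p = 0.0382, adjusted p = 0.906) and -0.29 ± 0.19 in CTX_HCQ against Control (adjusted p = 1). Its highest value came from CTX 3 and its lowest from CTX_HCQ 3, and without both the difference between those groups was -0.20. A pseudogene is named after Tyms as well.

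E2F1 and the E-type cyclins, which activate CDK2 at the G1 to S transition, complete the S phase set. E2f1 varied least of the 16, with a coefficient of variation of 10.8%, at 7.55, 8.92 and 8.25 FPKM in Control, 7.43, 8.46 and 7.68 in CTX and 8.62, 8.52 and 6.14 in CTX_HCQ, and its groups overlapped in every comparison. Ccne1 was found at 2.74, 2.07 and 3.26 FPKM in Control, 3.08, 3.58 and 4.12 in CTX and 3.49, 3.7 and 2.89 in CTX_HCQ. It had the smallest p of the S phase genes in CTX against Control, with a difference of 0.32 ± 0.18 (unadjusted p = 0.108, adjusted p = 0.653), and 0.20 without Control 2, its lowest library. Ccne2 was found at 2.11, 3.73 and 3.45 FPKM in Control, 4.24, 3.57 and 2.14 in CTX and 3.85, 2.45 and 2.7 in CTX_HCQ. The lowest values, 2.11 and 2.14 FPKM, came from Control and CTX, and its difference between them was 0.066 ± 0.25 (adjusted p = 0.939).

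**Figure D2:**
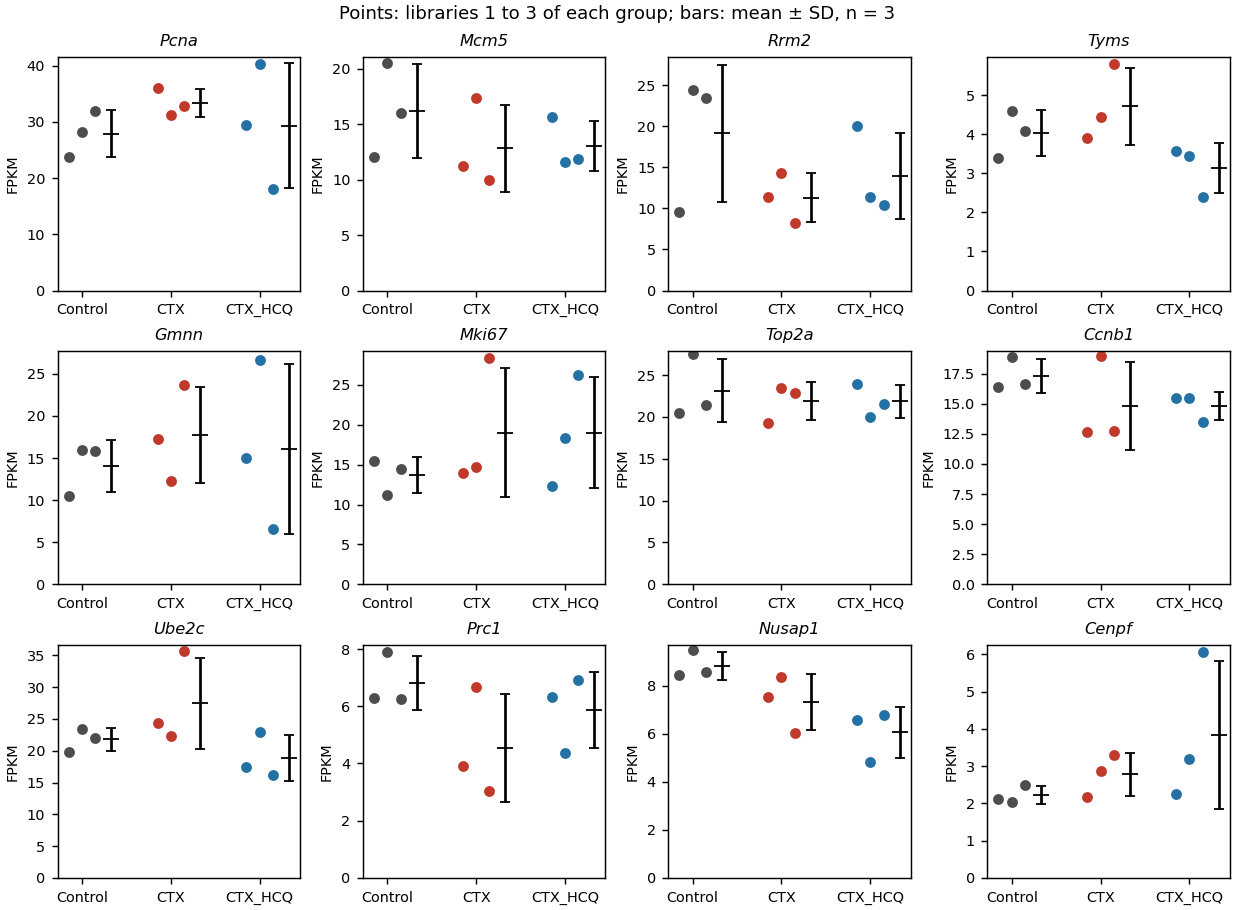
FPKM of 12 of the 46 genes in each library; points are libraries 1 to 3 from left to right in each group, and black bars give the mean ± SD (n = 3). The wide spread of Gmnn within CTX_HCQ, the 3 high libraries of Rrm2 and the high Mki67 of CTX 3 and CTX_HCQ 3 are visible, as is the step of Nusap1 between Control and CTX_HCQ.

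Among the 30 mitosis genes, 13 were higher and 17 lower in CTX than in Control, with a median of -0.014 beside -0.0045 over all tested genes. None had an unadjusted p under 0.05 (0 of 30, beside 7.80% of all tested genes, 3.60% higher and 4.20% lower). Groups did not overlap for 4 of the 30, Birc5 higher and Cdc20, Nusap1 and Kif11 lower, which is 13.3% beside 19.7% of all tested genes. The split was the same, 13 higher and 17 lower, for CTX_HCQ against CTX, with a median of -0.084, beside 0.013 over all tested genes. Only Ube2c had an unadjusted p under 0.05, with CTX_HCQ lower, beside 3.60% lower and 1.84% higher of all tested genes. Of the 30, 0 were without overlap, beside 8.02% of all tested genes. In CTX_HCQ against Control, 7 were higher and 23 lower with a median of -0.13, beside -0.011 and 51.9% lower over all tested genes. Only Nusap1 had an unadjusted p under 0.05 in that comparison, with CTX_HCQ lower, beside 1.07% lower and 1.09% higher of all tested genes. Groups did not overlap for 3 of the 30 there, Ccnb1, Plk1 and Nusap1, all lower, which is 10% beside 6.31% of all tested genes in either direction and 3.06% for lower. The count of 23 lower genes describes this list and is not a test, since all 30 were read from the same libraries.

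Cyclin A2 and the B-type cyclins activate CDK1, the kinase that drives entry into mitosis. Ccna2 was found at 15.2, 17.5 and 14.5 FPKM in Control, 14.2, 15.1 and 12.7 in CTX and 15.2, 11.4 and 14.3 in CTX_HCQ. Ccnb1 was found at 16.4, 18.9 and 16.6 FPKM in Control, 12.7, 19 and 12.8 in CTX and 15.4, 15.5 and 13.5 in CTX_HCQ. Both groups of drug-treated libraries had a low Ccna2 value, 12.7 FPKM in CTX 3 and 11.4 FPKM in CTX_HCQ 2, while all CTX_HCQ values of Ccnb1 lay under the lowest Control value of 16.4 FPKM. In CTX_HCQ against Control the difference was -0.20 ± 0.17 for Ccna2 and -0.21 ± 0.19 for Ccnb1 (adjusted p = 1 for each). Ccnb2, the most abundant mitosis member with Cdc20, ran from 28.3 FPKM in CTX_HCQ 3 to 40.8 FPKM in CTX 3. Cdk1 was found at 11.2, 12.6 and 10.9 FPKM in Control, 13.4, 11.8 and 15.8 in CTX and 10.9, 15.1 and 7.66 in CTX_HCQ. Its extremes were again CTX 3 and CTX_HCQ 3, and the difference in CTX_HCQ against CTX was -0.30 ± 0.23 (adjusted p = 0.906), and 0.029 without both.

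Polo-like kinase 1 and the Aurora kinases order the later steps, and Aurora B works in the chromosomal passenger complex with survivin (Birc5) and borealin (Cdca8). Plk1 was found at 19.8, 23.2 and 21.3 FPKM in Control, 16.3, 22.2 and 26 in CTX and 17.3, 17.2 and 18.4 in CTX_HCQ. Each CTX_HCQ value of Plk1 was below each Control value, with a difference of -0.26 ± 0.19 (unadjusted p = 0.201, adjusted p = 1), while the CTX values spanned both groups. Aurkb was found at 11.2, 13.8 and 10.2 FPKM in Control, 8.41, 12.7 and 14.6 in CTX and 9.52, 11.8 and 10.1 in CTX_HCQ, with the lowest and the highest value in CTX. Birc5 was found at 9.78, 8.13 and 7.47 FPKM in Control, 10.4, 9.87 and 10.4 in CTX and 9.34, 11.4 and 6.67 in CTX_HCQ. The CTX values of Birc5 were all above the Control values, with a smallest gap of 0.0847 FPKM and a difference of 0.25 ± 0.20 (adjusted p = 0.699). Cdca8 and Aurka differed by 0.12 and -0.083 in CTX against Control, with overlap.

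The spindle checkpoint (Bub1, Bub1b, Mad2l1, Ttk) holds the anaphase-promoting complex until every kinetochore is attached, and that complex then acts with Cdc20 and the ubiquitin-conjugating enzyme Ube2c. Bub1b (ENSMUSG00000040084) had the second smallest p of the mitosis genes in CTX against Control, at 23.8, 24.5 and 19.8 FPKM in Control, 14.1, 23.3 and 15.7 in CTX and 20.2, 20.2 and 21.6 in CTX_HCQ. CTX 1 and CTX 3 were the 2 lowest libraries, and CTX 2 lay within the Control range. The difference was -0.37 ± 0.21 (unadjusted p = 0.104, adjusted p = 0.653), and with 1 library left out it ran from -0.57 (without CTX 2) to -0.23 (without CTX 1). Cdc20 was found at 32.9, 35.1 and 30.2 FPKM in Control, 23.6, 27.5 and 29.5 in CTX and 31.5, 30.8 and 25.5 in CTX_HCQ, and its CTX values were all under the Control values, with a difference of -0.28 ± 0.18 (adjusted p = 0.664). Bub1, Mad2l1 and Ttk had differences of 0.047, 0.19 and -0.012 in the same comparison.

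Ube2c (ENSMUSG00000001403) was the mitosis gene with the smallest p in CTX_HCQ against CTX. It was found at 19.9, 23.4 and 22.1 FPKM in Control, 24.4, 22.4 and 35.7 in CTX and 17.5, 23 and 16.2 in CTX_HCQ. CTX 3 was far above the other libraries, and CTX_HCQ 2 lay between CTX 2 and CTX 1. The difference was -0.50 ± 0.22 (unadjusted p = 0.0437, adjusted p = 0.906), and it was -0.31 without CTX 3 and -0.21 without CTX 3 and CTX_HCQ 3. In CTX against Control it was 0.30 ± 0.22 (adjusted p = 0.689), and 0.099 without CTX 3.

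Kinetochores are built on CENP-A nucleosomes, and attach to microtubules through the NDC80 complex (Ndc80, Nuf2) and the corona proteins CENP-E and CENP-F. Cenpe (ENSMUSG00000045328) was found at 2.61, 2.55 and 3.57 FPKM in Control, 3.49, 3.48 and 5.31 in CTX and 3.11, 4.78 and 6.69 in CTX_HCQ. CTX_HCQ 3 and CTX 3 held its 2 highest values, and the other 7 libraries ran from 2.55 to 4.78 FPKM. The difference in CTX_HCQ against Control was 0.55 ± 0.25 (unadjusted p = 0.0528, adjusted p = 1), and 0.33 without CTX_HCQ 3. Cenpf, with the longest exons of the 46, was found at 6.06 FPKM in CTX_HCQ 3 and between 2.05 and 3.31 FPKM in the other 8 libraries, and its difference was 0.51 ± 0.27 in the same comparison (adjusted p = 1), and 0.20 without that library. Ndc80 stood at 5.27 FPKM in CTX 3 and between 1.56 and 3.68 FPKM elsewhere, and its difference in CTX against Control was 0.36, or 0.075 without CTX 3. Nuf2, its partner in the complex, stayed between 3.19 and 4.65 FPKM, and Cenpa between 7.24 and 11.6 FPKM.

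Motors and microtubule bundlers shape the spindle and its midzone: KIF11 pushes the poles apart, TPX2 and NUSAP1 bind and stabilise spindle microtubules, and PRC1, KIF23, KIF20A and anillin (Anln) act at the midzone and in cytokinesis. Prc1 (ENSMUSG00000038943) had the smallest p of all members in CTX against Control, at 6.27, 7.89 and 6.27 FPKM in Control, 3.92, 6.68 and 3.04 in CTX and 6.31, 4.36 and 6.92 in CTX_HCQ. CTX 1 and CTX 3 were its lowest libraries, and CTX 2 was above 2 of the 3 Control values. The difference was -0.54 ± 0.25 (unadjusted p = 0.0564, adjusted p = 0.652), with a 95% interval of -1.10 to 0.018. With 1 library left out it ran from -0.80 (without CTX 2) to -0.34 (without CTX 3). Between CTX_HCQ and CTX it was 0.34 ± 0.25 (adjusted p = 0.906), and 0.027 without CTX 3 and CTX_HCQ 3. Kif20a and Anln, which also act in cytokinesis, had differences of -0.43 and -0.34 in CTX against Control, with adjusted p of 0.656 and 0.673. With 1 library left out, Kif20a ran from -0.70 (without CTX 2) to -0.27 (without CTX 3) and Anln from -0.50 (without CTX 2) to -0.15 (without CTX 3).

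Nusap1 (ENSMUSG00000027306) was the member with the smallest unadjusted p in any comparison. It was found at 8.45, 9.49 and 8.56 FPKM in Control, 7.54, 8.37 and 6.05 in CTX and 6.57, 4.85 and 6.78 in CTX_HCQ. The Control values were the highest, all of them above all CTX values by 0.0743 FPKM or more and above all CTX_HCQ values by 1.67 FPKM or more, while CTX and CTX_HCQ overlapped. The difference was -0.49 ± 0.18 in CTX_HCQ against Control (unadjusted p = 0.0207, adjusted p = 1) and -0.25 ± 0.18 in CTX against Control (adjusted p = 0.685). With 1 library left out the former ran from -0.56 (without CTX_HCQ 3) to -0.36 (without CTX_HCQ 2) and the latter from -0.34 (without CTX 2) to -0.13 (without CTX 3). Exons of Nusap1 overlap those of Oip5 on the other strand, so reads of the pair may not be separable. Kif11 was lower in each CTX library than in each Control library, with a difference of -0.26 ± 0.19 (adjusted p = 0.695), while Kif23 and Tpx2 differed by -0.13 and -0.058 with overlap.

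Mki67 and Top2a, a chromosome coat protein and a topoisomerase that untangles sister chromatids, are the transcripts most often read as a sign of proliferation. Mki67 was found at 15.5, 11.1 and 14.5 FPKM in Control, 13.9, 14.8 and 28.4 in CTX and 12.3, 18.4 and 26.3 in CTX_HCQ. CTX 3 and CTX_HCQ 3 stood above the other 7 libraries, which ran from 11.1 to 18.4 FPKM and held values of all 3 groups. The difference was 0.38 ± 0.32 in CTX against Control (adjusted p = 0.712) and 0.39 ± 0.32 in CTX_HCQ against Control (adjusted p = 1). Without CTX 3 the former was 0.072, and without CTX_HCQ 3 the latter was 0.14. Top2a was found at 20.5, 27.5 and 21.4 FPKM in Control, 19.3, 23.5 and 22.8 in CTX and 24, 20 and 21.6 in CTX_HCQ. Its groups overlapped throughout, and the 95% intervals of its differences were -0.48 to 0.33 in CTX against Control and -0.48 to 0.33 in CTX_HCQ against Control. In CTX 3 and CTX_HCQ 3, where Mki67 was high, Top2a stood at 22.8 and 21.6 FPKM, within the range of the other libraries. Cdca3, which triggers the destruction of the mitotic inhibitor WEE1, ran from 9.21 FPKM in CTX_HCQ 3 to 22 FPKM in CTX 3.

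**Figure D3:**
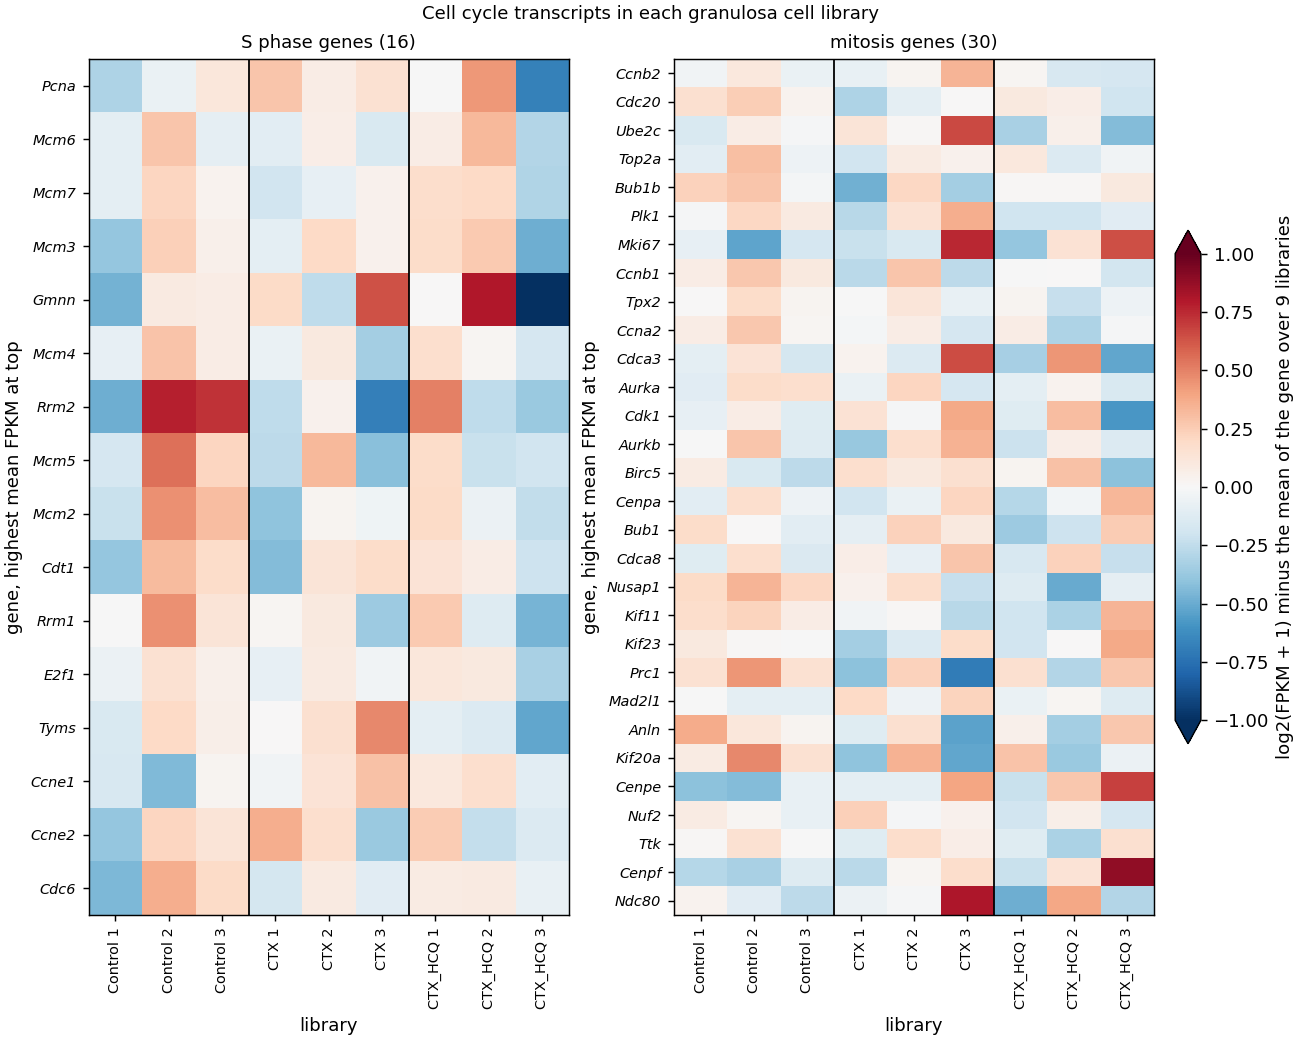
Deviation of each gene from its own mean over the 9 libraries, on the log2(FPKM + 1) scale, for the 16 S phase genes (left) and the 30 mitosis genes (right), with libraries in columns and black lines between groups. Control 2 is high for many genes of both sets, and the S phase genes are low in CTX_HCQ 3, where Cenpe, Cenpf and Mki67 are high.

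Libraries of 1 group differed from each other more than the groups did. The median deviation of the S phase genes from their 9-library means was -0.20, 0.26 and 0.093 in Control, -0.091, 0.094 and -0.042 in CTX and 0.16, 0.079 and -0.30 in CTX_HCQ. The highest and the lowest library were thus a Control and a CTX_HCQ library, and the 3 group ranges overlapped. For the mitosis genes it was 0.0067, 0.16 and -0.031 in Control, -0.095, 0.050 and 0.13 in CTX and -0.13, 0.0054 and -0.074 in CTX_HCQ, also with overlap. Group means of these medians were 0.050, -0.013 and -0.021 for the S phase genes and 0.045, 0.028 and -0.065 for the mitosis genes. Summed FPKM of the 16 S phase genes ran from 169 to 248 in Control, 194 to 213 in CTX and 150.1 to 233 in CTX_HCQ. The 30 mitosis genes summed to between 342 and 387 in Control, 317 and 397 in CTX and 326 and 344 in CTX_HCQ.

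Control 2 held the highest value of 17 members, 9 of them S phase genes, and CTX 3 that of 12 members, 10 of them mitosis genes such as Ube2c, Cdk1, Ccnb2 and Mki67. CTX 3 also held the lowest value of 7 members, the mitosis genes Anln, Aurka, Kif20a and Prc1 and the S phase genes Mcm4, Mcm5 and Rrm2. Control 2 held the lowest value of 4 members, and CTX 1 that of 9, 7 of them mitosis genes. CTX_HCQ 3 held the lowest value of 15 members, among them Pcna, Gmnn, Tyms, Rrm1, Mcm3, Mcm6 and Mcm7, and the highest of 6, Bub1, Cenpa, Cenpe, Cenpf, Kif11 and Kif23. The median exon length was 3752 bases for the 15 and 7681 bases for the 6, beside 4349 bases for all members. The coefficient of variation over the 9 libraries had a median of 21.6% for the S phase genes and 17.0% for the mitosis genes, beside 21.9% for tested genes in the same range of mean FPKM. The highest library was over 2-fold above the lowest for 8 of 16 S phase genes and 10 of 30 mitosis genes. These counts, and those of highest and lowest libraries, were not made over all tested genes, so they do not set the members apart.

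The wider machinery was read from 4 further lists. Of 63 other mitosis genes, 62 were tested, and in CTX against Control 25 were higher and 37 lower, with a median of -0.028 and 4 without overlap, which is 6.45% beside 19.7% of all tested genes. For CTX_HCQ against CTX, 27 were higher and 35 lower, with a median of -0.021 and 1 without overlap (1.61% beside 8.02%). The split in CTX_HCQ against Control was 17 higher and 45 lower, with a median of -0.077 and 5 without overlap (8.06% beside 6.31%). The single gene without overlap in CTX_HCQ against CTX was Cks2, a small subunit of CDK1 complexes, at 35.9, 49.4 and 48.4 FPKM in Control, 62.8, 47.3 and 84.5 in CTX and 29.2, 40.8 and 27.8 in CTX_HCQ. Each CTX_HCQ value was below each CTX value, with a difference of -0.95 ± 0.26 (unadjusted p = 0.00434, adjusted p = 0.522), and -0.65 without CTX 3 and CTX_HCQ 3. Its exons are short, at 692 bases. Fam83d, which directs casein kinase 1 to the spindle, was found at 8.4, 11.9 and 12 FPKM in Control, 5.79, 7.4 and 7.11 in CTX and 10.8, 5.73 and 7.12 in CTX_HCQ, with all CTX values below Control and a difference of -0.59 ± 0.23 (adjusted p = 0.639, or 0.0436 with library weights).

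Foxm1, the transcription factor of the late wave, was found at 7.35, 8.18 and 7.27 FPKM in Control, 5.11, 9.11 and 8.6 in CTX and 6.46, 5.63 and 9.36 in CTX_HCQ. Its lowest value was in CTX 1 and its highest in CTX_HCQ 3, and its difference was -0.032 ± 0.23 in CTX against Control and -0.072 ± 0.23 in CTX_HCQ against CTX (adjusted p = 0.970 and 0.974). The sign of both turned when 1 library was left out. In CTX_HCQ against Control, the smallest p of this list belonged to Ckap2l, a spindle protein, at -0.58 (unadjusted p = 0.0319), and Smc4, a condensin subunit, at 0.56 (unadjusted p = 0.0342). Smc4 stood at 26.3 FPKM in CTX_HCQ 3 and at 10.6 to 16.2 FPKM elsewhere. Ska1, part of the kinetochore, differed by -0.40 in CTX_HCQ against CTX (unadjusted p = 0.0975).

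Of 40 other S phase genes, 39 were tested, with 20 higher and 19 lower in CTX against Control (median 0.049, 8 without overlap), 15 and 24 in CTX_HCQ against CTX (median -0.024, 3 without overlap) and 16 and 23 in CTX_HCQ against Control (median -0.045, 4 without overlap). The shares without overlap were 20.5%, 7.69% and 10.3%, beside 19.7%, 8.02% and 6.31% of all tested genes. Polymerase alpha with its primase begins each new strand. Pola1, its catalytic subunit, was found at 2.54, 2.93 and 2.73 FPKM in Control, 1.8, 2.38 and 1.37 in CTX and 2.48, 1.77 and 2.42 in CTX_HCQ, with all CTX values below Control and a difference of -0.40 ± 0.19 (unadjusted p = 0.0602, adjusted p = 0.652). Prim2, the large primase subunit, was found at 2.96, 2.97 and 2.27 FPKM in Control, 2.8, 2.92 and 3.16 in CTX and 2.12, 2.1 and 1.93 in CTX_HCQ. All CTX_HCQ values of Prim2 lay below all values of both other groups, with a difference of -0.38 ± 0.16 against CTX (unadjusted p = 0.0403, adjusted p = 0.906) and -0.28 ± 0.16 against Control (adjusted p = 1). The histone chaperones Chaf1a, Chaf1b and Asf1b had differences of -0.33 in CTX against Control, -0.34 in CTX_HCQ against CTX and -0.45 in CTX_HCQ against Control, the comparison that named each.

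**Figure D4:**
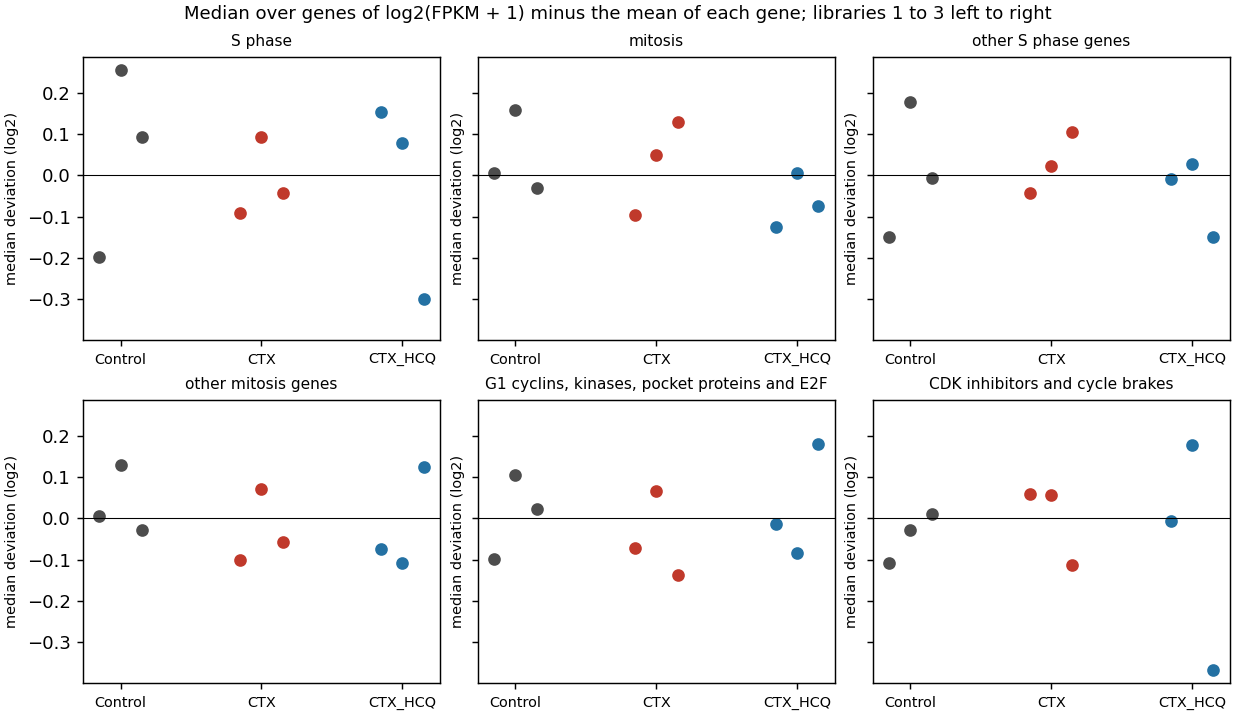
Median over the genes of each list of the deviation from the gene's 9-library mean, on the log2(FPKM + 1) scale, with 1 point per library and libraries 1 to 3 from left to right in each group. In all 6 lists the groups overlap, and the S phase genes and the cycle brakes are lowest in CTX_HCQ 3.

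All 21 G1 genes (cyclins, kinases, pocket proteins, E2F and MYC factors) were tested. In CTX against Control 8 were higher and 13 lower (median -0.084, 3 without overlap), in CTX_HCQ against CTX 15 and 6 (median 0.14, 1 without overlap) and in CTX_HCQ against Control 10 and 11 (median -0.0013, 1 without overlap). Of these 21 genes 14.3%, 4.76% and 4.76% were without overlap, beside the same 19.7%, 8.02% and 6.31%. Ccnd2, the D-type cyclin through which FSH drives granulosa cell division, was found at 30.4, 38.4 and 38.9 FPKM in Control, 23.8, 42.9 and 19 in CTX and 40.5, 26.9 and 45.4 in CTX_HCQ. CTX 1 and CTX 3 were its 2 lowest libraries, and CTX 2 its second highest. The difference was -0.39 ± 0.31 in CTX against Control and 0.43 ± 0.31 in CTX_HCQ against CTX (adjusted p = 0.699 and 0.906), and -0.15 and 0.19 without CTX 3. Myc, a driver of growth and G1 progression, was found at 40.7, 47.8 and 57.5 FPKM in Control, 35.6, 32.4 and 37.6 in CTX and 49.8, 26.8 and 22.1 in CTX_HCQ, all CTX values being below Control, with a difference of -0.45 ± 0.28 (adjusted p = 0.665). Mycn, its paralogue, was highest in CTX_HCQ 3, at 20 FPKM, and differed by 0.56 in CTX_HCQ against Control (unadjusted p = 0.0376). Ccnd1 and the pocket protein gene Rbl2 were named by their p in 1 comparison each, with -0.40 in CTX_HCQ against CTX and -0.33 in CTX against Control.

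Brakes of the cycle had fitted differences from -1.61 to 1.08 in CTX against Control, and 0 brakes passed the adjusted threshold. Those of the 46 members ran from -0.64 to 0.38, and those of all tested genes from -2.84 to 3.76. The brakes were also measured less precisely. Their unadjusted interval extended by a median of 0.73 to either side, beside 0.45 for the members and 0.53 for all tested genes. The wider range of the brakes alone therefore does not show a larger response. Of 16 brakes, 15 were tested, and in CTX against Control 7 were higher and 8 lower (median -0.032), with an unadjusted p under 0.05 for 3 higher and 2 lower (beside 3.60% and 4.20% of all tested genes), and groups without overlap for 6 of 15, beside 19.7% of all tested genes. For CTX_HCQ against CTX, 9 were higher and 6 lower, with 2 lower at an unadjusted p under 0.05 (beside 3.60%) and 0 without overlap (beside 8.02%). In CTX_HCQ against Control 5 were higher and 10 lower, with 2 higher at an unadjusted p under 0.05 (beside 1.09%) and 2 of 15 without overlap (13.3% beside 6.31%). Cdkn2a was the gene under the filter.

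Cdkn1a encodes p21, the CDK inhibitor induced by p53, and was found at 7.05, 30.4 and 40.7 FPKM in Control, 6.74, 6.93 and 5.0 in CTX and 25.1, 4.28 and 8.53 in CTX_HCQ. It was at or above 25.1 FPKM in Control 2, Control 3 and CTX_HCQ 1 and between 4.28 and 8.53 FPKM in the other 6 libraries. These are the same 3 libraries in which Rrm2 was highest. They also held the lowest Cyp17a1, a theca cell marker, at 0.58 to 0.99 FPKM against 7.06 to 45.4 elsewhere. Ptch1, Gli1 and Aldh1a1 of the same theca list overlapped, but the summed theca markers were lowest there, at 130 to 139 FPKM against 147 to 259. Summed endothelial markers were lowest in these 3 libraries, at 20.1 to 22.5 FPKM against 27.7 to 67.6. Parm1, from the luteal list, was highest there, at 55.1 to 75.4 FPKM against 7.03 to 13.6. Ptgfr of that list went the other way, at 7.71 to 12.0 FPKM there against 15.6 to 118.7 elsewhere. The other luteal markers overlapped. Summed luteal markers were 3431, 4217 and 4453 FPKM in these 3 libraries, above CTX_HCQ 3 at 2508 FPKM and below the rest. The part of other cells in the Cdkn1a and Rrm2 values was not tested. The difference of Cdkn1a was -1.61 ± 0.65 in CTX against Control (unadjusted p = 0.0318, adjusted p = 0.639), and among the 21 alternatives it was called only with limma's library weights (adjusted p = 0.0436). Between CTX_HCQ and CTX it was 0.61 ± 0.65 (adjusted p = 0.909), and -0.016 without CTX_HCQ 1. Cdkn1b, which encodes p27, was found at 73.4, 55.5 and 61.8 FPKM in Control, 54.6, 39.4 and 22.9 in CTX and 68.5, 44.2 and 37.1 in CTX_HCQ. Every CTX value of Cdkn1b was below every Control value, with a difference of -0.77 ± 0.33 (unadjusted p = 0.0420, adjusted p = 0.639), and -0.44 without CTX 3.

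Other brakes stood higher in CTX than in Control. Gadd45g, a stress-induced inhibitor of CDK1, was found at 13.3, 14.8 and 16.3 FPKM in Control, 25.3, 26.7 and 43.8 in CTX and 24.1, 62.3 and 19.6 in CTX_HCQ. All CTX and all CTX_HCQ values were above Control, with differences of 1.02 ± 0.38 and 1.02 ± 0.38 (unadjusted p = 0.0238 and 0.0235, adjusted p = 0.639 and 1). Cdkn1c, which encodes p57, was found at 2.57, 2.43 and 2.5 FPKM in Control, 3.38, 3.84 and 3.79 in CTX and 2.87, 4.85 and 3.48 in CTX_HCQ, also with both groups above Control and a difference of 0.41 ± 0.18 for CTX (adjusted p = 0.639). Cdkn2b, which encodes the CDK4 and CDK6 inhibitor p15, was found at 3.31, 1.04 and 1.44 FPKM in Control, 7.57, 7.02 and 1.93 in CTX and 1.35, 3.25 and 1.69 in CTX_HCQ. Its high values were those of CTX 1 and CTX 2, and its difference was 1.08 ± 0.44 in CTX against Control and -0.97 ± 0.44 in CTX_HCQ against CTX (adjusted p = 0.639 and 0.906). Btg1, an antiproliferative gene, was found at 19.5, 15.4 and 16.6 FPKM in Control, 36.9, 23 and 23.5 in CTX and 13.5, 25.6 and 12.3 in CTX_HCQ, above Control in each CTX library, with differences of 0.64 ± 0.29 and -0.71 ± 0.29 in the same comparisons (adjusted p = 0.639 and 0.892).

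**Figure D5:**
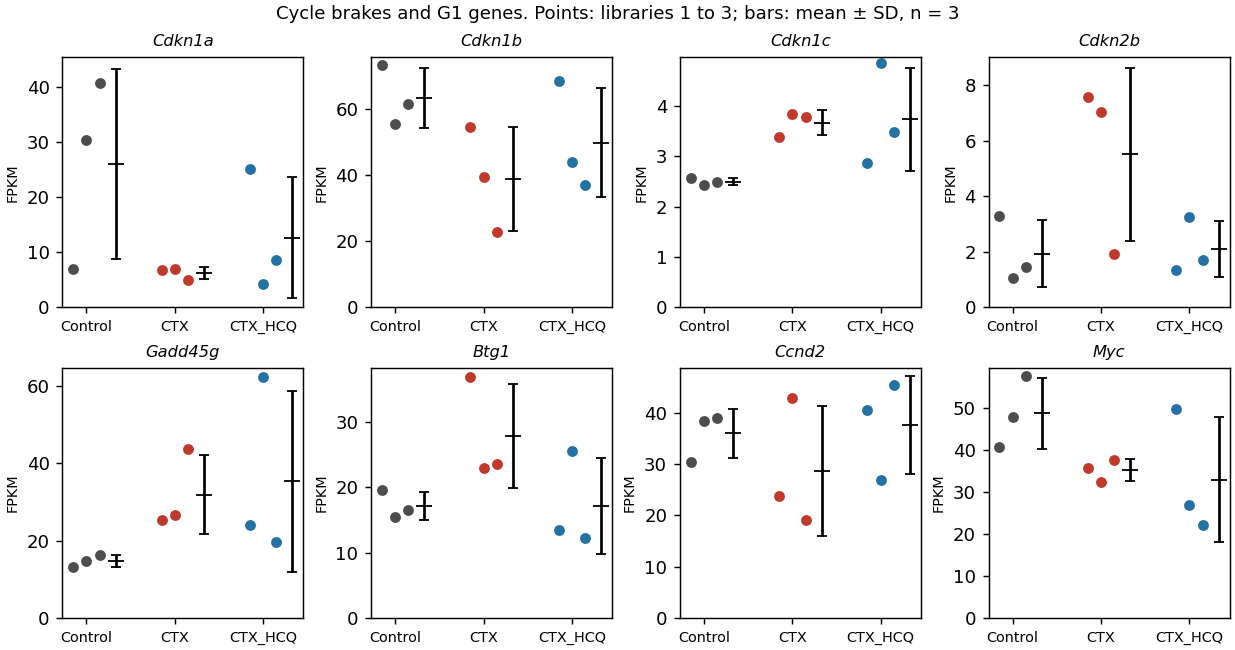
FPKM of 6 brakes of the cycle and of the G1 genes Ccnd2 and Myc in each library; points are libraries 1 to 3 from left to right in each group, and black bars give the mean ± SD (n = 3). Cdkn1a is high in 2 Control libraries and 1 CTX_HCQ library, and Gadd45g and Cdkn1c are above Control in every library of both other groups.

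Fitted differences were also read by promoter element. In CTX against Control, the median difference was -0.016 over the 19 mitosis genes with TTTGAA and 0.082 over the 7 without it. These medians were 0.0013 and -0.18 in CTX_HCQ against CTX, and -0.11 for both in CTX_HCQ against Control. Among the S phase genes, the 7 with TTTNNCGC had medians of -0.095, 0.042 and -0.027 in the same order, and the 6 without it -0.17, -0.028 and -0.15. For comparison, the unadjusted 95% interval of a single S phase gene extended by a median of 0.50 to either side of its estimate.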

How the data were processed

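The authors deposited 1 table of gene FPKM for 9 libraries, 3 in each of 3 groups. The build, GRCm39, and the programs DESeq2 1.20.0, featureCounts 1.5.0-p3, HISAT2 2.0.5 and fastp 0.23.2 are named per the submitters' processing notes, which give neither their order nor the strand setting. In GENCODE M21, exons of 11 of the 46 members overlap another gene (10 on the other strand), among them Ccna2, Cdc20, Nusap1, Prc1, Ube2c, Ccne2 and Mcm7, and Ccnb1, Ccnb2, Pcna and Tyms have pseudogenes named after them, so these values are uncertain. Of the 56748 identifiers, 52125 matched a symbol there.

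Genes that reached 1 FPKM in 3 or more libraries were tested as log2(FPKM + 1), a scale that understates the change of low genes, in 1 limma 3.58.1 model of all 9 libraries (R 4.3.3) with variances trended on the mean, a mean per group and Benjamini-Hochberg adjustment over the 14431 genes for every comparison separately (threshold 0.05). The fit was tested on simulated data. Median-of-ratios factors of the deposited FPKM were equal in all 9 libraries (1.01), so that scaling changes nothing. Whole reads, within 0.02 reads, were recovered for 14431 of the 14431 tested genes from FPKM and exon length, of which 853 had the length searched for. They served for depth and for limma voom.

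The members and lists were chosen with earlier results of these data known, and the members' values support no independent test of a pattern. Values in every library are given for 18 members fixed by name and for the 2 members of smallest p per set and comparison, and the wider lists name Ccnd2, Cdkn1a, Cdkn1b, Foxm1 and the 2 genes of smallest p per list and comparison. Further members were described after their values had been seen, as were the promoters of Cdc20, Ube2c, Mcm6 and Mcm5, the most abundant members with the elements in the bases shown. Promoters and their coordinates are from RefSeq on GRCm38.p6, and no other coordinates are used. Replicate numbers were not used to pair the libraries in the main model. Deviations of same-numbered libraries correlated between -0.457 and 0.135, with 3 of 9 above 0.1. Those of other pairs correlated between -0.291 and 0.315, with 7 of 18 above 0.1. With 3 libraries per group, these correlations cannot exclude a pairing.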

Additional observations from a re-analysis of the deposited data

How the results depend on the processing

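Over 21 alternatives, 3 of them added after the data had been seen (both CTX 3 and CTX_HCQ 3 left out, scaling to recovered totals, and a length trend removed), 0 of the 46 members were called in any of 126 recomputed counts, with a smallest adjusted p of 0.0857. The median difference of the mitosis genes ran from -0.089 to 0.068 in CTX against Control, -0.13 to -0.014 in CTX_HCQ against CTX and -0.17 to -0.083 in CTX_HCQ against Control, and that of the S phase genes from -0.18 to 0.043, -0.092 to 0.15 and -0.19 to 0.052. Over all tested genes, library weights called 648 genes in CTX against Control, among them Cdkn1a and Fam83d (adjusted p = 0.0436 each), and 1 in each of the other comparisons. Leaving out 1 library called 0 to 13 genes in CTX against Control and 0 to 10 in CTX_HCQ against CTX, the highest counts being without Control 1. Genes at an unadjusted p under 0.05 ran from 424 to 3935 in CTX against Control, 370 to 2832 in CTX_HCQ against CTX and 146 to 1079 in CTX_HCQ against Control. With the replicate number as a block, 0 genes were called in each comparison, and 847, 668 and 293 had an unadjusted p under 0.05.

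With 1 library left out, signs turned for 13, 26 and 19 of the 46 members in CTX against Control, CTX_HCQ against CTX and CTX_HCQ against Control. Foxm1, Pcna, Ccnd2, Cdkn1a and Cdkn1b turned in comparisons where they had been named by rule, and the cause was not tested. In CTX against Control, Foxm1 went from -0.032 to 0.016 with quantile scaling and to 0.047 with the length trend removed. In CTX_HCQ against CTX, Pcna was 0.039 without CTX 3 and CTX_HCQ 3. In CTX_HCQ against Control, Ccnd2 was -0.11 without CTX 3 and CTX_HCQ 3, and Cdkn1b was 0.089 with library weights. With each library left out in turn, Foxm1 ran from -0.17 to 0.20 in CTX against Control, -0.30 to 0.064 in CTX_HCQ against CTX and -0.29 to 0.032 in CTX_HCQ against Control. Likewise Cdkn1a ran from -0.016 to 1.14 and Pcna from -0.51 to 0.048 in CTX_HCQ against CTX, and Ccnd2 from -0.11 to 0.26 in CTX_HCQ against Control.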

Other observations

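Corpus luteum transcripts varied widely between libraries, and in the libraries with high Mki67 the measures of them differed. The median deviation of 8 luteal markers from their 9-library means was -0.87 on the log2 scale in CTX_HCQ 3 and -0.59 in CTX 3, the libraries with 26.3 and 28.4 FPKM of Mki67. In the other 7 libraries it lay between -0.16 (Control 2) and 0.59 (CTX 1). Control 2, the next lowest for these luteal markers, held the lowest Mki67, 11.1 FPKM, and the highest value of 17 cell cycle members. By summed FPKM the order was different: CTX_HCQ 3 was the lowest of the 9 at 2508 FPKM, but CTX 3 held 5638 FPKM, above 5 other libraries, and the highest sum was 7917 FPKM in CTX 1. In CTX 3, Hsd3b1, an enzyme of progesterone synthesis, made up 4637 FPKM of that sum. Granulosa markers had a median deviation of 0.34 in CTX_HCQ 3 and 0.013 in CTX 3. These values were noticed after the data had been seen, and their relation was not tested.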
